A study of Mus musculus with 6 samples.

Results

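Genes of the amino acid stress response were measured in natural regulatory T cells (nTreg cells, which hold back immune responses) after stimulation, in mice whose T cells carry a deletion of Srsf1, the gene of a splicing factor. The 37 genes came from a list of targets of the transcription factor ATF4 and of genes that supply amino acids or charge transfer RNAs (tRNAs). That list was drawn up with earlier results of these data known. All 37 were found among the 24982 symbols of the count table. They fall into 8 stress markers, 10 enzymes of amino acid synthesis and one-carbon metabolism, 7 amino acid transporters and 12 cytosolic tRNA synthetases. Symbols are written in capitals, as in the count table.

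KO libraries came from 3 mice of genotype Srsf1-flox/flox dLck.Cre, in which the distal Lck promoter drives Cre recombinase in T cells, and WT libraries from 3 wild-type mice, for which the labels give no allele. All were B6.129 mice aged 8 to 10 weeks. Splenic nTreg cells, sorted as CD4+CD25+CD127lo, were then stimulated for 72 h. The medium held antibodies to CD3 and to CD28 at 2 µg/ml each, with rIL-2 (interleukin-2) at 10 ng/ml, so every library is of stimulated cells and no unstimulated nTreg sample is used here. In the labels, titles and sorting protocol name nTreg cells, whereas the source field reads Th0 effector CD4. The Cre acts in T cells at large and not in nTreg cells alone.

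ATF4 is translated when the initiation factor eIF2 is phosphorylated, which eIF2 kinases do under amino acid shortage, endoplasmic reticulum stress or haem shortage. ATF4 then raises transcription of genes that make asparagine, serine, glycine and proline, carry amino acids into the cell and load them onto tRNAs. T cells induce the same genes after antigen receptor stimulation, when growth raises their need for amino acids and one-carbon units.

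Total gene counts were 10183626 to 20373649 in the KO libraries and 23263741 to 27562046 in the WT libraries, so every KO library was shallower than every WT library. Values below are CPM, the usual count unit scaled to library size, after TMM normalization, unless another scale is named, and 3 counts correspond to at most 0.301 CPM. SRSF1, the targeted gene, stood at 438, 812 and 787 CPM in KO replicates 1, 2 and 3 and at 1214, 1230 and 755 CPM in the libraries labelled WT replicates 1, 2 and 3. The groups overlapped for SRSF1, since the library labelled WT replicate 3 lay below KO replicates 2 and 3, and a count summed over all exons does not check the deletion. The log2 fold change of SRSF1 was -0.65 (SE 0.32), and -0.29 with the correction for transcript GC content and length described below. FOXP3, the master transcription factor of the Treg lineage, stood at 464, 357 and 413 CPM in KO and 160, 121 and 104 CPM in WT. The 6 listed Treg markers were mixed: FOXP3, IKZF2 and IKZF4 lay above WT in every KO library, while IL2RA (log2 fold change -0.09, SE 0.32), CTLA4 (-0.79, SE 0.46) and TNFRSF18 (0.30, SE 0.35) overlapped between groups. Both listed CD8 T cell markers, CD8A and CD8B1, were detected, with summed levels of 38.9 to 60.5 CPM in KO and 193 to 269 CPM in WT. CD8B1 stood at -2.68 (SE 0.23, edgeR adjusted p = 0.0166, the smallest of all genes tested) and CD8A at -1.92 (SE 0.29, edgeR adjusted p = 0.197). Of the listed T cell markers, CD3E (0.68, SE 0.22) and CD4 (0.70, SE 0.23) lay above WT in every KO library. CD3D (0.04, SE 0.27) and CD28 (-0.28, SE 0.42) overlapped between groups. B cell, macrophage and erythroid markers summed to at most 4.75 CPM in KO and 4.23 CPM in WT, with CSF1R, LYZ2, HBA-A1 and HBB-B1 listed at 0, and NK cell markers to 18.3 to 47.7 CPM in KO and 29.0 to 45.7 CPM in WT. Most of the NK sum was KLRK1, which overlapped between groups (-0.12, SE 0.38). KLRB1C (1.94, SE 0.69, edgeR adjusted p = 0.618) and NCR1 lay above WT in every KO library. NCR1, at 3 to 27 counts in KO and 1 to 3 in WT, was too low to be tested in edgeR. The part of the CD8 marker difference in the results below was not tested, and in bulk RNA fewer cells of a type and less RNA per cell cannot be told apart.

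Of the 37 genes, 32 had lower fitted values in KO than in WT and 5 had higher ones (ATF5, CEBPB, SHMT1, SHMT2 and SLC1A5), while 0 passed the threshold of an adjusted p under 0.05 in edgeR's quasi-likelihood test. Across all 11772 genes tested, 48.4% had a log2 fold change below 0, 0.017% passed as lower and 0% as higher. At an unadjusted p under 0.05, 12 of the 37 were lower and 0 higher, against 2.76% of all tested genes lower and 4.75% higher. In 16 of the 37 all 3 KO libraries lay below all 3 WT libraries, and in 0 they lay above, against 8.18% and 7.48% of all tested genes. The median log2 fold change in KO over WT was -0.52 for the 37 genes and 0.02 for all genes tested. The 37 genes were chosen with earlier results of these data known, so these shares and medians describe the list and are not a test of it. Adjusted p ranged from 0.404 to 0.989. DESeq2, run on the same counts, passed ASNS (adjusted p = 0.0296) and TRIB3 (adjusted p = 0.0337) as lower in KO, where it passed 0.28% of all genes in that direction.

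By role, the median log2 fold change was -0.69 for stress markers, -0.50 for synthesis and one-carbon enzymes, -0.37 for transporters and -0.48 for tRNA synthetases. The stress marker median was -0.46 without KO replicate 2 and -1.15 without KO replicate 3, and the transporter median was -0.16 without KO replicate 2 and -0.58 without KO replicate 1. All 12 tRNA synthetases had fitted values below 0 (11 with upper quartile or library-size scaling, where WARS stood at 0.04 and 0.05), as did 8 of 10 enzymes, 6 of 7 transporters and 6 of 8 stress markers. KO lay below WT without overlap in 6 of 12 synthetases, 5 of 10 enzymes, 3 of 7 transporters and 2 of 8 stress markers. The count of 12 genes at an unadjusted p under 0.05 (edgeR, all lower) moved with single libraries. Counting lower genes, it was 4 without WT replicate 1, 4 without KO replicate 2, 8 without the library labelled WT replicate 3, 19 without KO replicate 1 and 16 without KO replicate 3. The count over all genes, in either direction, moved as well, from 884 of 11772 with all libraries. In the same order it was 509 of 12048, 917 of 12063, 606 of 11961, 1250 of 11990 and 1272 of 12103. Of the 37 genes, 1 was higher at that p without KO replicate 2 and 1 without KO replicate 3.

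**Figure D1:**
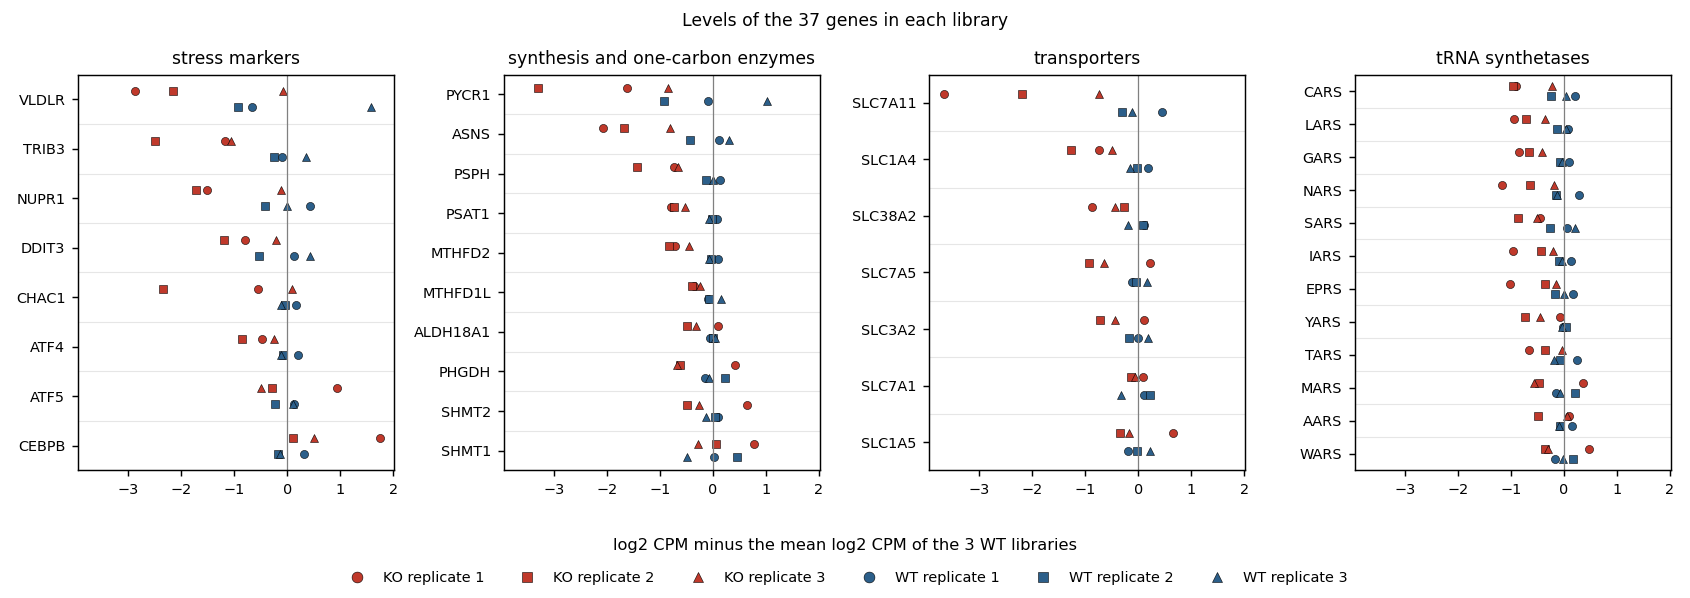
Level of each of the 37 genes in each library, as log2 CPM minus the mean log2 CPM of the 3 WT libraries (x axis), with KO libraries in red above WT libraries in blue in every row and 1 symbol shape per replicate number. In 16 rows, among them TRIB3, ASNS, PSAT1, SLC7A11 and GARS, all red points lie left of all blue points; for CEBPB, ATF5, SHMT2 and SLC1A5 KO replicate 1 lies farthest to the right.

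ATF4 acts through a composite element of ATF and C/EBP sites whose core is written TGATGNAA. That core was searched on both strands of RefSeq promoter windows (GRCm38.p6, 250 bases before to 50 after the start of transcription), which were found for 30 of the 37 genes; CARS, LARS, MARS, NARS, SLC1A5, SLC7A5 and WARS were not matched. It occurred in 13 of the 30 (43.3%), against 1219 of 27025 genes with a window (4.51%). The list was drawn up from known ATF4 targets, so this share is a description of the list. By role the core was found in 4 of 8 stress markers, 2 of 10 enzymes, 2 of 5 transporters and 5 of 7 tRNA synthetases. The 13 genes with the core were AARS, ASNS, CHAC1, GARS, IARS, NUPR1, PYCR1, SLC1A4, SLC7A11, TARS, TRIB3, VLDLR and YARS, and all 13 had fitted values below 0 in KO, with a median log2 fold change of -0.81. Of the 17 genes with a window and no core in it, 13 were below 0, with a median of -0.33. The difference between these medians was not tested, and 7 genes of each set lay below WT without overlap.

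Bases around the core follow for the 6 genes that hold it and had an unadjusted p under 0.05 in edgeR. Each window is 60 bases, 5′ to 3′ on the gene's own strand. The 6 were picked by that p from the 13 genes with the core, and the others are not shown. Whether the element bears on the level in KO was not tested. Capitals mark the core or its reverse complement.
ASNS: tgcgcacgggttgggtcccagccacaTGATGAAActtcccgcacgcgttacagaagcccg
TRIB3: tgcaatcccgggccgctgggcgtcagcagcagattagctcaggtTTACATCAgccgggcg
PYCR1: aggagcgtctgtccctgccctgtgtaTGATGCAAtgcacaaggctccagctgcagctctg
SLC7A11: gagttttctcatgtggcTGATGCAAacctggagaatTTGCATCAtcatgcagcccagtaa
SLC1A4: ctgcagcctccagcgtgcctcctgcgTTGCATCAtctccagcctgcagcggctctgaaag
GARS: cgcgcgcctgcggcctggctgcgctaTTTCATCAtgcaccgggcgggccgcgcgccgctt
These windows lie at chr6:7693199-7693258 (minus strand) for ASNS, chr2:152344031-152344090 (minus) for TRIB3, chr11:120643818-120643877 (minus) for PYCR1, chr3:50443637-50443696 (minus) for SLC7A11, chr11:20332684-20332743 (minus) for SLC1A4 and chr6:55037945-55038004 (plus) for GARS, all GRCm38.p6. Counted from the start of transcription as 1, the core began at -23 in ASNS, 15 in TRIB3, -103 in PYCR1, -4 in SLC1A4 and -30 in GARS. SLC7A11 held it at both -66 and -47, on opposite strands.

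Among the stress markers, TRIB3 and ATF4 itself stood lower in every KO library than in any WT library. TRIB3, a pseudokinase that feeds back on ATF4, was at 11.4, 4.53 and 12.5 CPM in KO replicates 1, 2 and 3 and at 24.5, 21.8 and 33.3 CPM in WT replicates 1, 2 and 3. They did not overlap, and the KO mean was 35.8% of the WT mean (log2 fold change -1.48, SE 0.41, edgeR adjusted p = 0.456). ATF4 was at 337, 262 and 394 CPM in KO and 541, 445 and 435 CPM in WT. The highest KO library lay under the lowest WT library (log2 fold change -0.52, SE 0.24, edgeR adjusted p = 0.667). ATF4 protein is set mainly by translation, which these libraries do not measure.

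DDIT3, which encodes the stress-induced transcription factor CHOP, was at 11.4, 8.68 and 17.2 CPM in KO and 21.7, 13.6 and 26.7 CPM in WT. The groups overlapped, since KO replicate 3 exceeded WT replicate 2 (log2 fold change -0.74, SE 0.37, edgeR adjusted p = 0.682). CEBPB, a C/EBP factor that can bind the composite element, was at 61.6, 19.6 and 26.0 CPM in KO and 22.8, 16.2 and 16.6 CPM in WT. Its log2 fold change of 0.95 (SE 0.43, edgeR adjusted p = 0.663) stood at 0.30 without KO replicate 1, whose value was the highest of all 6.

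CHAC1, a glutathione-degrading enzyme, was at 4.21, 1.13 and 6.62 CPM in KO and 6.96, 6.04 and 5.67 CPM in WT, and its value of -0.65 (SE 0.55) stood at -0.21 without KO replicate 2 and at -1.23 without KO replicate 3. NUPR1, a small stress-induced nuclear protein, was at 1.51, 1.28 and 4.11 CPM in KO and 6.10, 3.33 and 4.45 CPM in WT (log2 fold change -1.03, SE 0.53, and -1.74 without KO replicate 3). For CHAC1, NUPR1, DDIT3 and VLDLR, KO replicate 3 was the highest KO library and lay within the WT range. VLDLR, a lipoprotein receptor induced through ATF4, was at 2.24, 3.77 and 16.1 CPM in KO and 10.8, 8.94 and 51.6 CPM in WT. Its log2 fold change of -1.71 (SE 0.88) became -0.44 when the library labelled WT replicate 3 was left out and -3.01 without KO replicate 3. ATF5, a relative of ATF4, was at 30.4, 12.98 and 11.2 CPM in KO and 17.3, 13.5 and 17.01 CPM in WT, with KO replicates 2 and 3 both below all WT libraries and KO replicate 1 above them. Its log2 fold change was 0.20 (SE 0.41) with all libraries and -0.40 without KO replicate 1.

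**Figure D2:**
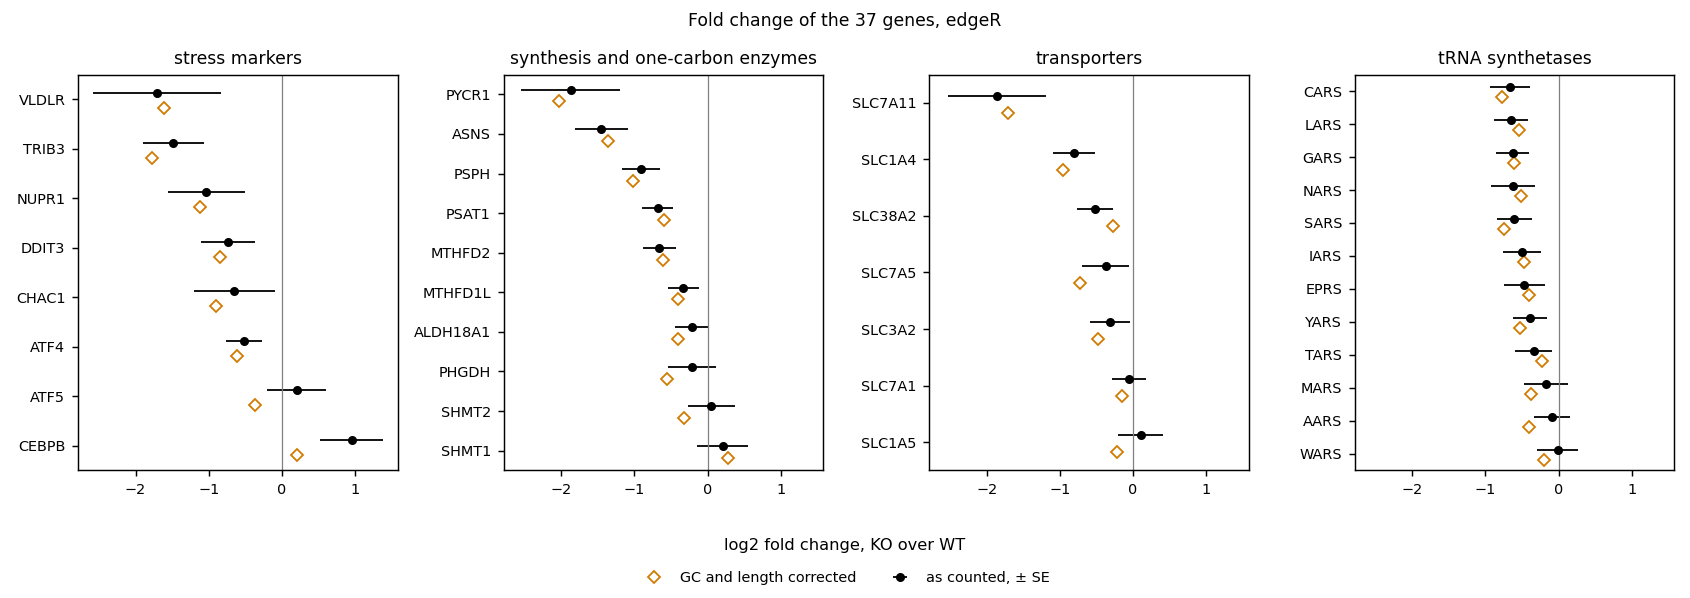
Log2 fold change of each gene, KO over WT (x axis), from edgeR on the counts (black points, bars are 1 SE) and after a correction for transcript GC content and length (open diamonds, no error drawn). As counted, 32 of 37 points lie below 0, and 35 of 37 do so after the correction, with ATF5, SHMT2 and SLC1A5 changing side.

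Among the enzymes, ASNS, PSAT1, PSPH, MTHFD2 and MTHFD1L had every KO library below every WT library, and the groups of the other 5 overlapped. ASNS, asparagine synthetase, was at 70.3, 92.1 and 170 CPM in KO and 323, 219 and 366 CPM in WT. Every KO library lay below every WT library, and the KO mean was 36.6% of the WT mean (log2 fold change -1.45, SE 0.37, edgeR adjusted p = 0.404, the lowest of the 37 genes). On the FPKM scale, which corrects for gene length, ASNS averaged 44.98 ± 18.9 in KO and 123 ± 32.4 in WT (SD, n = 3 each), which placed it 17th of the 37 genes in KO and 6th in WT.

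PSAT1 and PSPH catalyse the later steps of serine synthesis. PSAT1, phosphoserine aminotransferase, was at 381, 393 and 457 CPM in KO and 693, 652 and 627 CPM in WT. The 2 groups were narrow and far apart, with means of 410 ± 40.7 CPM in KO and 658 ± 33.5 CPM in WT (SD, n = 3 each). The log2 fold change of PSAT1 was -0.68 (SE 0.21, edgeR adjusted p = 0.529). PSPH, phosphoserine phosphatase, was at 55.7, 34.5 and 58.9 CPM in KO and 103, 84.5 and 92.6 CPM in WT, again without overlap (log2 fold change -0.91, SE 0.26, edgeR adjusted p = 0.480). PHGDH, which catalyses the entry step of the same pathway, differed in pattern: it was at 226, 110 and 106 CPM in KO and 153, 198 and 161 CPM in WT. KO replicates 2 and 3 lay below all WT libraries and KO replicate 1 above them, so that the log2 fold change was -0.21 (SE 0.33) with all libraries and -0.66 without KO replicate 1.

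In the one-carbon branch, MTHFD2, the mitochondrial folate dehydrogenase, was at 177, 164 and 214 CPM in KO and 313, 285 and 277 CPM in WT. The groups did not overlap (log2 fold change -0.66, SE 0.22, edgeR adjusted p = 0.573). MTHFD1L, which releases formate from mitochondria, was at 203, 199 and 221 CPM in KO and 247, 248 and 291 CPM in WT, also without overlap (log2 fold change -0.33, SE 0.21). SHMT2 and SHMT1, which move the one-carbon unit from serine to folate in mitochondria and cytosol, had log2 fold changes of 0.05 (SE 0.32) and 0.21 (SE 0.35). SHMT2 was at 457, 207 and 243 CPM in KO and 312, 298 and 265 CPM in WT, and without KO replicate 1 its value was -0.38. SHMT1 was at 168, 101 and 79.9 CPM in KO and 99.4, 135 and 69.2 CPM in WT, a spread of the WT libraries that covered KO replicates 2 and 3.

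For proline, ALDH18A1, which makes its precursor from glutamate, was at 239, 161 and 179 CPM in KO and 217, 226 and 231 CPM in WT (log2 fold change -0.22, SE 0.23). PYCR1, the reductase of the last step, was at 3.61, 1.06 and 6.22 CPM in KO and 10.6, 5.92 and 23.0 CPM in WT. The groups overlapped by a narrow margin, with KO replicate 3 above WT replicate 2 (log2 fold change -1.87, SE 0.68, edgeR adjusted p = 0.623, and -1.21 without the library labelled WT replicate 3).

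Among the transporters, SLC7A11, SLC1A4 and SLC38A2 stood lower in every KO library, whereas the heavily expressed SLC7A5 and SLC3A2 overlapped between groups. SLC7A11, the cystine importer xCT, was at 0.777, 2.34 and 6.62 CPM in KO and 15.1, 8.94 and 10.2 CPM in WT. KO replicate 1, with 17 counts, was farthest down, and the KO mean was 28.4% of the WT mean (log2 fold change -1.85, SE 0.67, edgeR adjusted p = 0.621). The log2 fold change of SLC7A11 was -2.91 without KO replicate 3 and -1.37 without KO replicate 1. SLC1A4, a carrier of alanine, serine and cysteine, was at 16.3, 11.2 and 19.2 CPM in KO and 30.8, 26.5 and 24.5 CPM in WT (log2 fold change -0.81, SE 0.29, edgeR adjusted p = 0.618). SLC38A2, a sodium-coupled carrier of small neutral amino acids, was at 156, 239 and 211 CPM in KO and 310, 304 and 252 CPM in WT (log2 fold change -0.52, SE 0.24, edgeR adjusted p = 0.668).

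SLC7A5 and SLC3A2 form the large neutral amino acid exchanger of activated T cells. SLC7A5 was at 524, 236 and 286 CPM in KO and 416, 435 and 501 CPM in WT (log2 fold change -0.37, SE 0.32, edgeR adjusted p = 0.770), and SLC3A2 at 277, 154 and 189 CPM in KO and 253, 227 and 290 CPM in WT (log2 fold change -0.31, SE 0.27). For SLC7A5 and SLC3A2 alike, KO replicates 2 and 3 lay below all WT libraries and KO replicate 1 did not, and without KO replicate 1 SLC7A5 stood at -0.79. SLC1A5, a glutamine carrier, was at 234, 117 and 131 CPM in KO and 131, 145 and 173 CPM in WT (log2 fold change 0.10, SE 0.30, and -0.27 without KO replicate 1). SLC7A1, a carrier of arginine and lysine, was at 324, 280 and 293 CPM in KO and 331, 358 and 243 CPM in WT, with every KO library inside the WT range (log2 fold change -0.05, SE 0.24).

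**Figure D3:**
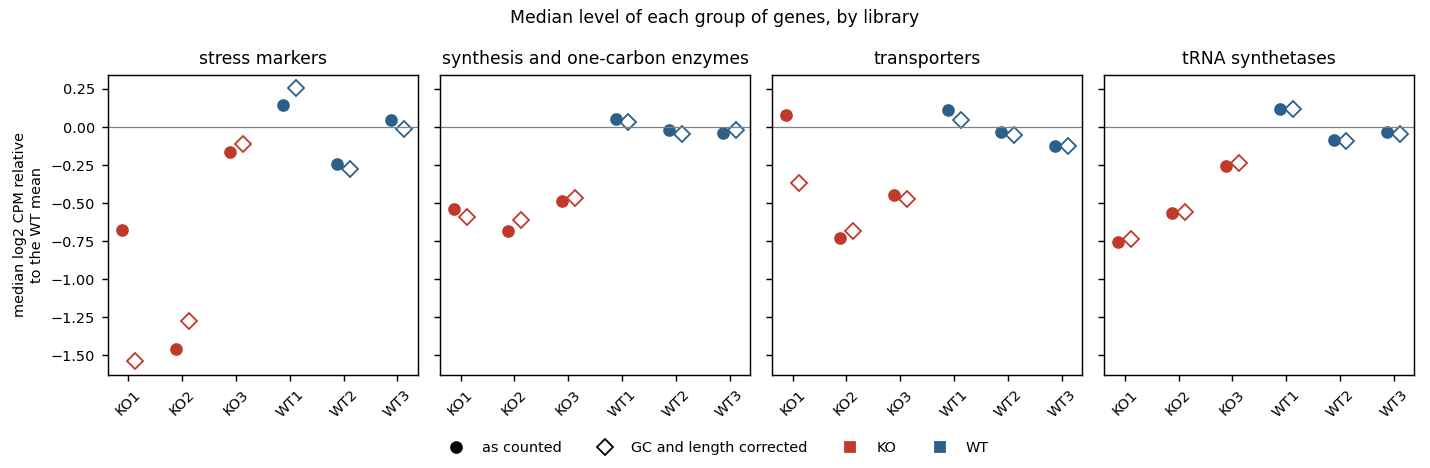
Median over the genes of each role of log2 CPM relative to the WT mean (y axis), in each KO library (left, red) and WT library (right, blue), as counted (filled) and with GC and length trends removed (open). Enzymes and tRNA synthetases are lower in all 3 KO libraries on both scales; for transporters KO replicate 1 stands at 0.08 as counted and at -0.37 after the correction, and for stress markers KO replicate 3 stands above WT replicate 2.

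The tRNA synthetases join an amino acid to its tRNA, and those with the smallest p stood at about the same log2 fold change. GARS, which charges glycine, was at 354, 404 and 481 CPM in KO and 685, 604 and 625 CPM in WT (log2 fold change -0.63, SE 0.23, edgeR adjusted p = 0.621). LARS, for leucine, was at 190, 221 and 285 CPM in KO and 383, 334 and 376 CPM in WT (log2 fold change -0.65, SE 0.24, edgeR adjusted p = 0.624). SARS, for serine, was at 292, 218 and 280 CPM in KO and 413, 331 and 459 CPM in WT (log2 fold change -0.61, SE 0.24, edgeR adjusted p = 0.651). In all 3 genes each KO library lay below each WT library. CARS, for cysteine, was at 86.9, 83.3 and 140 CPM in KO and 189, 137 and 166 CPM in WT, where KO replicate 3 exceeded WT replicate 2 (log2 fold change -0.67, SE 0.28, edgeR adjusted p = 0.651).

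NARS, IARS and YARS, for asparagine, isoleucine and tyrosine, also lay lower without overlap, with log2 fold changes of -0.63 (SE 0.30), -0.50 (SE 0.26) and -0.39 (SE 0.24). EPRS, for glutamate and proline, overlapped by a narrow margin, with 779 CPM in KO replicate 3 and 771 CPM in WT replicate 2 (log2 fold change -0.47, SE 0.28). TARS, for threonine, stood at -0.34 (SE 0.26). MARS (methionine, -0.17, SE 0.29), AARS (alanine, -0.09, SE 0.24) and WARS (tryptophan, -0.01, SE 0.28) were the synthetases nearest 0, and for MARS and WARS KO replicate 1 was the highest of all 6 libraries. Over the 12 synthetases the median level relative to the WT mean was -0.76, -0.57 and -0.25 on the log2 scale in KO replicates 1, 2 and 3 and 0.12, -0.08 and -0.03 in WT replicates 1, 2 and 3.

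On the FPKM scale ATF4 was the most abundant of the 37 transcripts in both groups (199 ± 40.9 in KO and 277 ± 20.4 in WT), followed by PSAT1 (154 ± 11.1 in KO and 240 ± 2.09 in WT). GARS and NARS came next, at 138 ± 12.4 and 138 ± 35.6 in KO and at 208 ± 6.48 and 207 ± 27.1 in WT, and these 2 genes did not differ in level beyond their spread (SD, n = 3 each). The lowest levels were those of VLDLR (0.665 ± 0.664 in KO and 2.19 ± 2.28 in WT) and SLC7A11 (0.270 ± 0.221 in KO and 0.919 ± 0.232 in WT). Together the 37 genes took 0.614% to 0.757% of all counts in the KO libraries and 0.876% to 0.948% in the WT libraries, with no overlap between the groups.

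KO replicate 1 differed from the other KO libraries along base composition, also for several of the genes whose groups overlapped. Its log2 CPM minus the mean of KO replicates 2 and 3 correlated with transcript GC content at r = 0.83 across 11701 genes and at r = 0.83 across the 37, a description over genes, which are not independent replicates and share the same 3 libraries. The 13 genes of the list that were over 0.5 higher in KO replicate 1 had a median GC content of 56.5%, among them CEBPB, ATF5, PHGDH, SHMT2, SLC7A5 and SLC1A5, and the 8 that were over 0.5 lower had a median of 47.2%, among them SLC7A11, VLDLR, ASNS and NARS. In the WT libraries the same correlation across all genes was -0.31, 0.03 and 0.17 for replicates 1, 2 and 3. KO replicate 1 also had the highest mismatch rate, 0.52%, against 0.32% and 0.35% in the other KO libraries and 0.37% to 0.43% in WT.

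**Figure D4:**
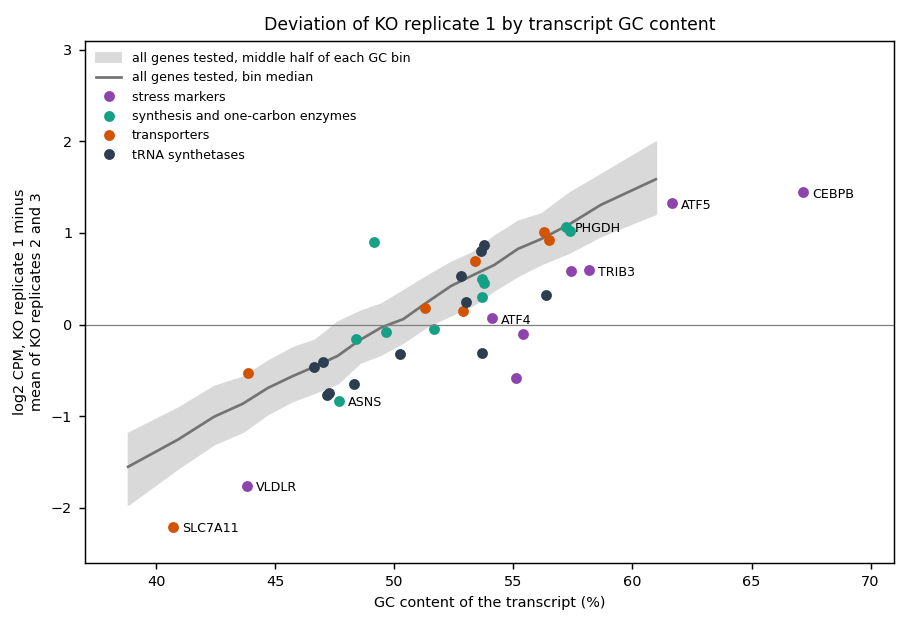
Log2 CPM of KO replicate 1 minus the mean of KO replicates 2 and 3 (y axis) against the GC content of the transcript (x axis) for the 37 genes, coloured by role, over the median (line) and interquartile range (band) of all genes tested in 20 bins of GC content. The genes run from -2.21 for SLC7A11 at 40.7% GC to 1.44 for CEBPB at 67.2% GC, along the trend of all genes.

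With each library's GC and length trend removed, a correction added after the data were seen, 35 of the 37 genes were below 0 in KO (49% of all 11701 genes with a GC value), and CEBPB (0.20) and SHMT1 (0.28) were above. At an unadjusted p under 0.05 (edgeR) 23 of the 37 were then lower and 0 higher. Of all 11701 genes, 632 (5.4%) were lower and 793 higher. By role these were 9 of 12 synthetases, 8 of 10 enzymes, 4 of 7 transporters and 2 of 8 stress markers. None of the 37 passed an adjusted p under 0.05 in edgeR after the correction; the smallest adjusted p was 0.0928, for SLC7A5, whose log2 fold change stood at -0.72 after the correction. PHGDH stood at -0.56, SHMT2 at -0.32, ATF5 at -0.38 and SLC1A5 at -0.22 after the correction. TRIB3 stood at -1.78, ASNS at -1.36 and ATF4 at -0.62.

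Other genes of the pathway, from lists drawn up beside the 37, were also without a call in edgeR on the counts as deposited, at an adjusted p under 0.05. Under alternative settings only the genes named below from these lists were followed. With the replicate number as a block and the GC and length correction together, GPT2 (edgeR adjusted p = 0.0227) and ALDH1L2 (edgeR adjusted p = 0.0335) of these passed as lower. Of 9 eIF2 kinases and regulators, which act ahead of ATF4, 6 were below 0, with a median log2 fold change of -0.14, and 0 had an unadjusted p under 0.05. PPP1R15A, the stress-induced subunit that directs eIF2 dephosphorylation, stood at 26.4 ± 3.62 CPM in KO and 20.6 ± 0.868 CPM in WT (log2 fold change 0.36, SE 0.25), with all KO libraries above all WT libraries, and EIF2S1, the phosphorylated eIF2 subunit itself, at -0.35 (SE 0.32). With the GC and length correction PPP1R15A stood at 0.14 and EIF2S1 at -0.0019, and the median of these 9 genes was -0.0019. Of 14 tested other stress response factors and effectors, 11 were below 0 (median -0.39). At an unadjusted p under 0.05 (edgeR) 5 of the 14 (35.7%) were lower, against 2.76% of all tested genes. The lists were chosen with earlier results of these data known, so this share is not a test of them. CTH, which makes cysteine from cystathionine, stood at 19.4 ± 5.60 CPM in KO and 55.3 ± 15.997 CPM in WT (log2 fold change -1.51, SE 0.33, edgeR adjusted p = 0.331), and the alanine aminotransferase GPT2 at 19.8 ± 7.75 CPM in KO and 49.4 ± 9.54 CPM in WT (log2 fold change -1.33, SE 0.33, edgeR adjusted p = 0.387). For both genes no KO library reached a WT library, and DESeq2 passed both as lower (adjusted p = 0.00549 for CTH and 0.0274 for GPT2). With the GC and length correction CTH stood at -1.18 and GPT2 at -1.38, and the median of the 14 genes was -0.39.

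The other 11 genes of cytosolic synthetases and their scaffold had a median of -0.14, with 8 below 0. Those with the smallest p were the scaffold protein AIMP1 (-0.44, SE 0.21) and the aspartate enzyme DARS (-0.68, SE 0.34), both without overlap. The 17 mitochondrial synthetases, which serve protein synthesis inside mitochondria, had a median of -0.08 with 9 below 0, and the smallest p were those of HARS2 (-0.47, SE 0.24) and NARS2 (-0.53, SE 0.28). The 15 other amino acid transporters had a median of 0.00 with 7 below 0, and the smallest p were those of SLC38A10 (0.67, SE 0.31) and the lysosomal carrier SLC36A1 (0.78, SE 0.39). At an unadjusted p under 0.05 (edgeR), 0 of the 11, 0 of the 17 and 0 of the 15 genes of these lists were lower or higher. Of all tested genes, 2.76% were lower and 4.75% higher. The 26 tested other one-carbon and amino acid enzymes had a median of -0.05 with 17 below 0, and 1 was lower and 1 higher at that p. Among them ALDH1L2, the mitochondrial formyl-folate dehydrogenase, stood at 0.914, 2.41 and 4.01 CPM in KO and 16.5, 5.73 and 37.02 CPM in WT (log2 fold change -3.05, SE 0.75, edgeR adjusted p = 0.378), and GLDC, of the glycine cleavage system, at 7.62 ± 0.545 CPM in KO and 3.66 ± 0.755 CPM in WT (log2 fold change 1.06, SE 0.33, edgeR adjusted p = 0.529). For ALDH1L2 and for GLDC the groups did not overlap, and DESeq2 passed ALDH1L2 as lower (adjusted p = 0.00141). With the GC and length correction AIMP1 stood at -0.33, DARS at -0.39, HARS2 at -0.36 and NARS2 at -0.33. SLC38A10 then stood at 0.23, SLC36A1 at 0.54, ALDH1L2 at -3.05 and GLDC at 0.91. The corrected medians were -0.17 for the other cytosolic synthetases and scaffold, -0.04 for mitochondrial synthetases, 0.10 for other transporters and -0.08 for other enzymes.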

How the data were processed

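The 3 KO and 3 WT libraries were grouped and numbered by the sample titles. The authors deposited whole-number read counts per gene symbol, not normalized, and values per gene taken as FPKM from their scale and the table's name. The libraries (TruSeq stranded mRNA, 75-base single-end reads) went through VIPER, per the labels' design text; STAR 2.4.2a is named per the file headers and build mm9 per the submitters' processing notes. Counting tool, annotation and strand setting: not given in the sources used here. Reads shared with overlapping genes or pseudogene copies therefore cannot be told apart. Mapping and mismatch rates are percent values from the authors' aligner summary.

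The test was edgeR's quasi-likelihood F test (version 4.0.16, R 4.3.3) on TMM-normalized counts of the 11772 genes that filterByExpr kept at its minimum of 10, with Benjamini-Hochberg adjustment over all of them and a threshold of 0.05; SE were taken from the F statistic. The pipeline was tested on simulated data. The design text gives 3 mice a genotype and no pairing by replicate number. Alternatives were DESeq2 1.42.0, limma 3.58.1 (voom, and log2(FPKM + 1) or log2(FPKM + 0.1), with a filter of 1 FPKM in 3 libraries or none), other scalings and filters, thinning to equal depth, a block for the replicate number, fits without each library, and KO replicate 1 and WT replicate 3 left out together. Added after the data were seen were per-library loess offsets on transcript GC content and length (GENCODE M21, 99.4% of tested genes matched), alone and with the block. The members and lists were chosen with earlier results of these data known. Named in full are ATF4 and the 4 genes of each role with the smallest p, and from each other list the 2 with the smallest p; further values were added for the remaining genes of the 37. Dates replace the gene symbols of 26 rows (0.271% of counts), which were kept and are not named.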

Additional observations from a re-analysis of the deposited data

How the results depend on the processing

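The number of the 37 genes below 0 ranged from 30 to 36 over all alternatives. None of them passed in edgeR or limma, except that ASNS, PYCR1, TRIB3 and VLDLR passed with the replicate number as a block and the GC and length correction together (4 genes lower). Among the genes named from the other lists, the 2 with the smallest p in each, GPT2 and ALDH1L2 passed under that setting too. The DESeq2 test passed 2 of the 37. The design text gives no pairing by replicate number. Deviations of same-numbered libraries from their group means correlated at -0.36, 0.15 and 0.14 for numbers 1, 2 and 3. After the GC and length correction these values were -0.19, 0.24 and 0.30. KO replicate 1 correlated best with WT replicate 2 on both scales. KO replicates 2 and 3 correlated best with WT replicate 1 as counted (0.32 and 0.23), and with their own number after the correction. Deviations from a mean of 3 libraries depend on each other, so these values cannot decide whether the numbers pair libraries. Over all genes, the 2 calls lower and 0 higher became 0 and 1 with the replicate block, 37 and 80 with the replicate block and the GC and length correction, 5 and 10 with that correction alone, 35 and 87 with the DESeq2 test and 16 and 64 with 2 against 2 libraries. Calls lower were 1 with voom, 1 at equal depth and 7 with log2(FPKM + 1) and no filter, and calls higher were 3 with no filter on low counts. With 1 library left out there were 0 to 2 calls lower and 0 to 1 higher (509 to 1272 genes at an unadjusted p under 0.05 in edgeR).

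The enzymes' median log2 fold change of -0.50 ranged from -0.63 to -0.44 with 1 library left out and stood at -0.64 with 2 against 2 libraries and -0.58 with the GC and length correction. With 1 library left out the median ranged from -1.15 to -0.46 for stress markers, -0.58 to -0.16 for transporters and -0.67 to -0.43 for tRNA synthetases. Genes near 0, and VLDLR, changed sign. With 2 against 2 libraries ATF5 stood at -0.32, VLDLR at 0.0076, SHMT1 at -0.35, SHMT2 at -0.42 and SLC1A5 at -0.14. With the GC and length correction ATF5 stood at -0.38, SHMT2 at -0.32 and SLC1A5 at -0.22, and with the replicate block added at -0.37, -0.31 and -0.21, with EIF2S1 at 0.0013. SHMT2 stood at -0.036 with voom and -0.036 with the replicate block, SLC7A1 at 0.0054 with library size only, and WARS at 0.039 with upper quartile scaling, 0.053 with library size only and 0.0036 at equal depth. With 1 library left out, log2 fold changes ranged from -0.40 to 0.41 for ATF5, -0.16 to 0.46 for SHMT1, -0.38 to 0.26 for SHMT2, -0.21 to 0.056 for SLC7A1, -0.27 to 0.28 for SLC1A5, -0.20 to 0.072 for AARS and -0.34 to 0.13 for WARS. The cause of these sign changes was not tested. With 3 libraries a group an exact permutation test cannot go below p = 0.1, and at 10183626 counts in the shallowest library values under 0.301 CPM rest on fewer than 3 counts.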

Other observations

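LARS2, a mitochondrial tRNA synthetase gene picked out after its values were seen, stood at 387, 158 and 67.5 CPM in KO replicates 1, 2 and 3 and at 130, 1017 and 178 CPM in WT replicates 1, 2 and 3, a spread within WT that none of the 12 cytosolic synthetases of the list showed.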
